A study of Homo sapiens with 33 samples.

Results

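10 enzymes of branched-chain amino acid catabolism are described here in human cancer cells after deletions in GABPB1, which encodes a B subunit of GABP, a transcription factor. They are ALDH6A1, BCAT1, BCAT2, BCKDHA, BCKDHB, DBT, HIBCH, HIBADH, MCCC2 and PCCB, and were found by name among 15149 entries of 3 tables of fold changes. All 10 had a row in every table. They were picked with the log2 fold changes and adjusted p-values of these tables known. Adjusted p-values and calls of these 10 genes therefore describe the tables and are no independent evidence, and the same holds for differences between tables.

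RNA was sequenced from 33 libraries. In A-375, a melanoma line, 12 libraries came from 9 clones of the total knockout, in which exons 2 to 9 (4 libraries) or exon 2 alone (8 libraries) of GABPB1 had been deleted. A further 2 A-375 libraries came from 2 clones of the long-form knockout, in which exon 9 had been deleted. The A-375 controls were 4 libraries of clones cut at ROSA26 as an editing control and 2 of parental cells without an edit. In UM-UC-3, a bladder cancer line, the total knockout had 9 libraries from 8 clones (4 libraries with exons 2 to 9 deleted and 5 with exon 2 deleted), and the controls were 3 libraries of ROSA26 clones and 1 of parental cells. All edited lines were single-cell clones sorted after transfection with a plasmid carrying Cas9 and guide RNAs. By their names the tables set knockout against parental, but the choice of controls is not spelled out, and UM-UC-3 has 1 parental library. No value per library was used here. The spread between libraries therefore enters only through the standard error (SE) of each fitted log2 fold change, and the depth of each library is unknown. Some clones, mostly A-375 clones with exon 2 deleted, gave 2 libraries each, so the errors may be in part technical.

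The branched-chain amino acids leucine, isoleucine and valine are broken down mainly in mitochondria. An aminotransferase first moves their amino group to 2-oxoglutarate, and the branched-chain ketoacid dehydrogenase complex then oxidises the ketoacids, which commits them to breakdown. Each amino acid then follows a route of its own, and isoleucine and valine reach the citric acid cycle through propionyl-CoA. ALDH6A1, methylmalonate semialdehyde dehydrogenase, catalyses the last step of the valine route and forms propionyl-CoA. GABP joins the DNA-binding ETS protein GABPA to a B subunit and is known as a regulator of nuclear genes for mitochondrial proteins.

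GABP recognises a GGAA core, and the printed sequences show where that core lies before the starts of ALDH6A1 and DBT, the 2 genes whose responses differed between the cell lines. Each is the stretch of 250 bases before the RefSeq start on GRCh38.p14, read 5′ to 3′ along the gene, with GGAA, or TTCC where the core is on the other strand, in capitals. The ALDH6A1 stretch is chr14:74084454-74084703 on the minus strand and the DBT stretch is chr1:100249835-100250084 on the minus strand.
ALDH6A1: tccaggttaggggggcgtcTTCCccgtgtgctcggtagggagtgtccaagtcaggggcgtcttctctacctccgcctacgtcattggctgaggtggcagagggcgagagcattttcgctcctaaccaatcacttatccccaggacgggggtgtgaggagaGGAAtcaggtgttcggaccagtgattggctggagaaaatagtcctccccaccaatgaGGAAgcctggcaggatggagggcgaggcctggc
DBT: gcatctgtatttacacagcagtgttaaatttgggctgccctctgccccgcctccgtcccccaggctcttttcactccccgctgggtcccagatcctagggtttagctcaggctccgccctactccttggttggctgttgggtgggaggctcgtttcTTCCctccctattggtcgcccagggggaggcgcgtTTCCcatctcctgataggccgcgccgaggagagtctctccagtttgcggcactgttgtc
The ALDH6A1 stretch holds 3 cores, whose first bases are at -231, -90 and -33, counted from the start. That of DBT holds 2, at -94 and -59. RefSeq gave promoters for 8 of the 10 genes (12 start sites); BCAT2 and HIBADH had no entry. GGAA was found on either strand in 8 of the 8, in the window from 250 bases before to 50 after the start, and in 95.5% of all 35116 promoters. The longer motif CCGGAAG, which holds GGAA, was found in 0 of the 8, against 10.3% of all promoters. These matches describe letters and are not binding sites.

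The deposited entries of GABPB1 itself moved in both directions in total knockouts. The log2 change of the long form, GABPB1L, was -12.60 ± 0.71 (SE) in UM-UC-3 and -10.60 ± 0.70 in A-375 total knockouts, in the authors' deposited tables. For the short form, GABPB1S, the authors' deposited tables gave -9.86 ± 2.70 in UM-UC-3 and -9.81 ± 0.72 in A-375 total knockouts. Other GABPB1 entries rose in the authors' deposited tables. GABPB1L-DEX2 changed by 11.82 in UM-UC-3 and 13.61 in A-375 total knockouts. GABPB1S-DEX2 changed by 10.15 in UM-UC-3 and 12.36 in A-375 total knockouts. The mean normalized count of GABPB1L-DEX2 was 798 in UM-UC-3 and 615 in A-375, beside 271 and 130 for GABPB1L. Total knockouts thus still held RNA counted under GABPB1 entries. With 1 group near 0 these sizes of change have no fold meaning. The partner GABPA (1.43 ± 0.19 in UM-UC-3, 0.81 ± 0.22 in A-375) and the paralog GABPB2 (2.49 ± 0.20 in UM-UC-3, 1.81 ± 0.32 in A-375) passed as higher in total knockouts by the authors' deposited tables. In the table labelled as the long-form knockout, GABPB1L had -12.79 ± 1.47 in the authors' deposited table, but GABPB1S changed by 13.95 ± 1.04 and an entry named GABPB1S-DEX2 by -12.00 ± 1.48. In the A-375 total-knockout table the authors' deposited values of this last pair had the opposite signs, -9.81 for GABPB1S and 12.36 for GABPB1S-DEX2. The controls of the pair of A-375 tables thus differed in which short-form entry was present, and different control libraries and a different naming of transcripts cannot be told apart. Of 6 melanocyte markers, 3 were in the A-375 total-knockout table. SOX10 stood at 756 per 1000000 of the summed means and the pigment protein PMEL at 1.03, while TYR, DCT and MLANA had no entry. Of 9 urothelial markers, 3 were in the UM-UC-3 table (UPK1A, GATA3 and PPARG, 28.8 per 1000000 in sum), while keratins 5 and 20, TP63 and the other uroplakins had no entry. The same list summed to more in A-375, 53.2 per 1000000 in the total-knockout and 66.8 in the long-form table, most of it PPARG (48.0 and 61.4), so it did not mark UM-UC-3 as urothelial.

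In UM-UC-3 total knockouts, 7 of the 10 genes passed an adjusted p of 0.05 in the authors' deposited table. ALDH6A1, DBT, BCKDHA and HIBADH were higher, and BCAT1, BCAT2 and HIBCH were lower. Of all 13310 entries there, 31.1% passed, 17% higher and 14.2% lower, and nothing is read from the members' count because the genes were chosen with these values known. The median log2 change of the 10 genes was 0.09, beside 0.03 over all entries, and calls lay on both sides of 0.

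**Figure D1:**
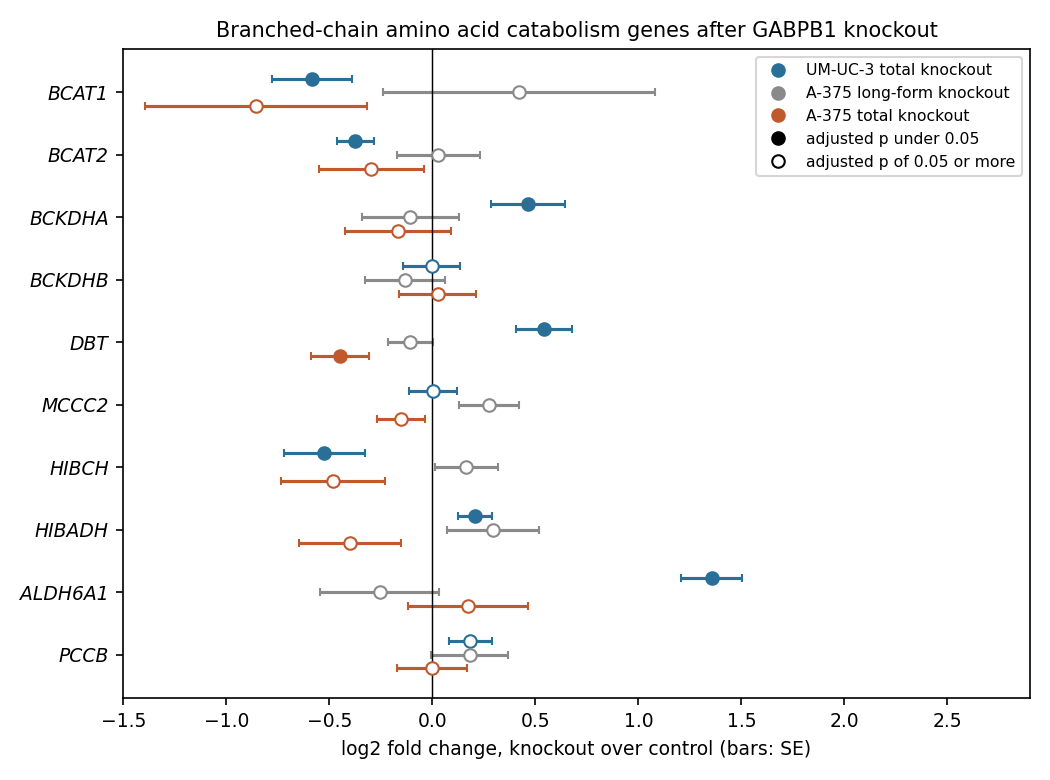
Log2 fold change of knockout over control for the 10 genes in the 3 deposited tables, in pathway order from top to bottom. Points are the authors' fitted values, bars their SE, and filled points passed an adjusted p of 0.05. ALDH6A1 in UM-UC-3 (1.36) lies farthest to the right, and DBT is filled on both sides of 0.

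ALDH6A1 rose 2.56-fold in UM-UC-3 total knockouts (log2 change 1.36 ± 0.15, SE, in the authors' deposited table). It ranked 6 by Wald statistic among 13310 entries ordered from the strongest rise, and 396 by the size of the change. Its SE lay below the median of 0.18 over the table. The mean normalized count was 2347 over the libraries of the fit. From that mean and the fold change, the level works out as 2499 in knockouts and 977 in controls if the only control was the parental library. With all 4 UM-UC-3 controls it works out as 2889 in knockouts and 1129 in controls. In bulk RNA, more expressing cells and more RNA per cell cannot be told apart. Cell type markers also moved in UM-UC-3, where 17% of all entries passed as higher. All 3 measured urothelial markers passed as higher in the authors' deposited table (0.58 for GATA3 to 1.32 for UPK1A on the log2 scale). GATA3 passed by a narrow margin (adjusted p 0.049 in that table), and the markers were not recomputed under other settings. Of 4 measured melanocyte markers, MITF (1.47) and DCT (2.20) passed as higher there, and SOX10 (1.01) and MLANA (-0.12) did not pass. The mean normalized counts of UPK1A (35.3) and DCT (109) were low beside a median of 1370 over all entries. The melanocyte markers summed to 14.1 per 1000000 there and the part of these shifts in the results was not tested.

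The same gene did not pass in A-375. In total knockouts its log2 change was 0.17 ± 0.29 (adjusted p 0.752), and in the long-form knockout it was -0.26 ± 0.29 (adjusted p 0.766), by each of the authors' deposited tables. Its implied level was 573 in A-375 total knockouts and 508 in controls if only parental libraries were fitted. With the ROSA26 controls added it was 586 in total knockouts and 520 in controls. The 95% interval of the A-375 total-knockout change ran from -0.40 to 0.75 and so lay below the UM-UC-3 value of 1.36. The difference between the lines, UM-UC-3 minus A-375, was 1.18 ± 0.33 (95% interval 0.54 to 1.83; adjusted p 0.00829, normal test of the difference over 12639 entries). In that comparison 10.4% of all entries passed, 6.32% with a difference above 0, and of the 10 genes 2 did, ALDH6A1 and DBT.

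**Figure D2:**
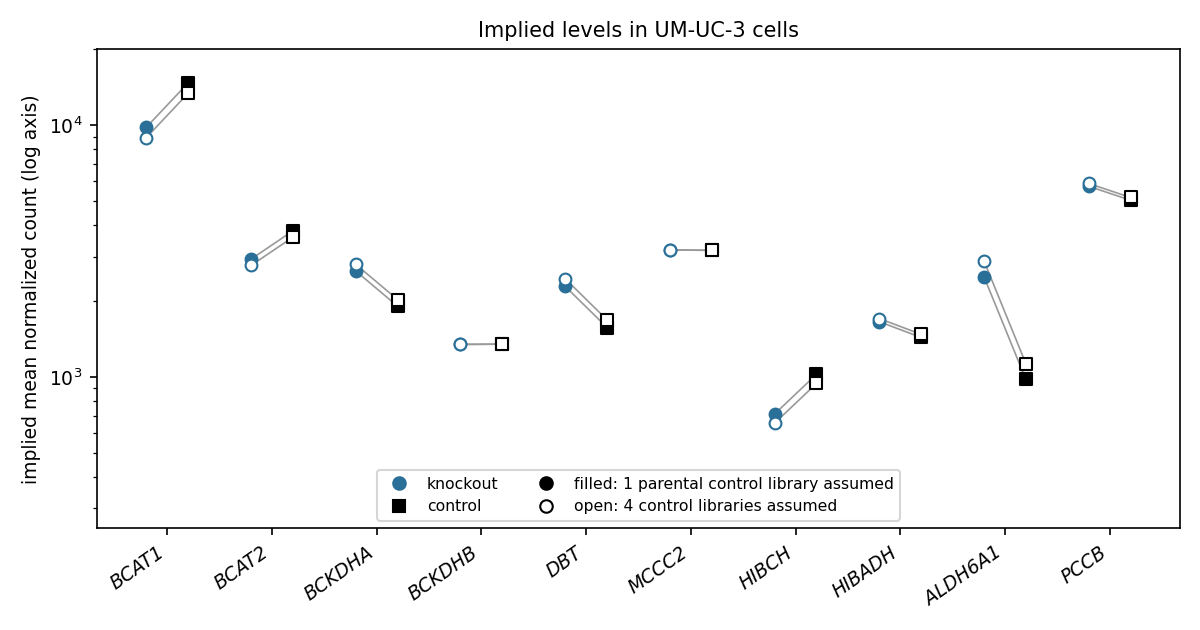
Implied mean normalized counts of the 10 genes in UM-UC-3 knockouts (circles, left) and controls (squares, right) on a log axis, worked out from the deposited mean and fold change. Filled symbols assume 1 parental control library and open symbols 4 control libraries. ALDH6A1 shows the steepest line, 2499 in knockouts and 977 in controls with 1 control library.

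The aminotransferases were lower in UM-UC-3. BCAT1, the cytosolic enzyme, changed by -0.59 ± 0.19 on the log2 scale (in the authors' deposited table, at an adjusted p of 0.0119). That corresponds to an implied 9806 normalized counts in knockouts and 14719 in controls with 1 control library. BCAT2, the mitochondrial enzyme, changed by -0.37 ± 0.09 (in the authors' deposited table, at an adjusted p of 0.000359), or an implied 2935 in knockouts and 3802 in controls. In A-375 total knockouts BCAT1 had -0.86 ± 0.54 (in the authors' deposited table, at an adjusted p of 0.313). BCAT2 had -0.30 ± 0.26 there (in the authors' deposited table, at an adjusted p of 0.491). The difference between the lines was 0.27 (95% interval -0.86 to 1.40) for BCAT1 and -0.08 (-0.61 to 0.46) for BCAT2, so a difference between the lines was not detectable at this precision.

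Within the dehydrogenase complex DBT and BCKDHA passed as higher in UM-UC-3, and BCKDHB and DLD did not pass. DBT, the E2 core that carries the acyl group, was higher in UM-UC-3 (0.54 ± 0.13, adjusted p 0.000545) and lower in A-375 total knockouts (-0.45 ± 0.14, adjusted p 0.0208), as each of the authors' deposited tables gave it. The implied levels with parental controls were 2288 in UM-UC-3 knockouts and 1570 in UM-UC-3 controls. In A-375 they were 1009.5 in total knockouts and 1378 in controls. The difference between the lines was 0.99 ± 0.19 (95% interval 0.61 to 1.37; adjusted p 8.66e-05, normal test of the difference). DBT was the 1 gene of the 10 that passed in A-375 total knockouts, where 10.8% of all 14330 entries with an adjusted p did (5.74% as lower).

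BCKDHA, the E1 alpha subunit, rose in UM-UC-3 (0.47 ± 0.18 from the authors' deposited table, where its adjusted p was 0.0332), and its A-375 total-knockout value was -0.17 ± 0.26. Their difference of 0.63 (95% interval 0.02 to 1.25) had an adjusted p of 0.183 by the normal test of the difference. BCKDHB, the E1 beta subunit that pairs with BCKDHA, lay near 0 in the authors' deposited tables, at 0.00 ± 0.14 in UM-UC-3 and 0.03 ± 0.19 in A-375 total knockouts. Its UM-UC-3 interval ran from -0.28 to 0.27 and left out the estimate of BCKDHA, but overlapped the BCKDHA interval of 0.11 to 0.82. The difference between these genes was not tested. The E3 subunit DLD, which other ketoacid dehydrogenases share, had 0.03 ± 0.13 in UM-UC-3 (in the authors' deposited table, at an adjusted p of 0.892).

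On the valine route HIBCH passed as lower and HIBADH as higher in UM-UC-3. HIBCH, which removes CoA from 3-hydroxyisobutyryl-CoA, had a log2 change of -0.52 ± 0.20 in UM-UC-3 (in the authors' deposited table, at an adjusted p of 0.0291). HIBADH, which oxidises the product to methylmalonate semialdehyde, the substrate of ALDH6A1, rose by 0.21 ± 0.08 on the log2 scale there (in the authors' deposited table, at an adjusted p of 0.0398). HIBADH lost its call after subtraction of the table's median (0.18, adjusted p 0.0855). In A-375 total knockouts HIBCH had -0.48 ± 0.25 and HIBADH -0.40 ± 0.25 in the authors' deposited table, and neither passed (adjusted p 0.215 and 0.304). The difference between the lines was -0.04 (95% interval -0.67 to 0.59) for HIBCH and 0.61 (0.10 to 1.12, adjusted p 0.113 by the normal test of the difference) for HIBADH.

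The carboxylase subunits MCCC2 and PCCB did not pass in any of the 3 tables. MCCC2, a subunit of methylcrotonyl-CoA carboxylase on the leucine route, had 0.00 ± 0.12 in UM-UC-3 and -0.15 ± 0.12 in A-375 total knockouts in the authors' deposited tables. PCCB, the beta subunit of propionyl-CoA carboxylase, had 0.18 ± 0.10 in UM-UC-3 (adjusted p 0.161) and 0.00 ± 0.17 in A-375 total knockouts in the authors' deposited tables. The intervals of MCCC2 ran from -0.22 to 0.23 in UM-UC-3 and from -0.38 to 0.08 in A-375. For PCCB they ran from -0.02 to 0.39 in UM-UC-3 and from -0.33 to 0.33 in A-375.

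**Figure D3:**
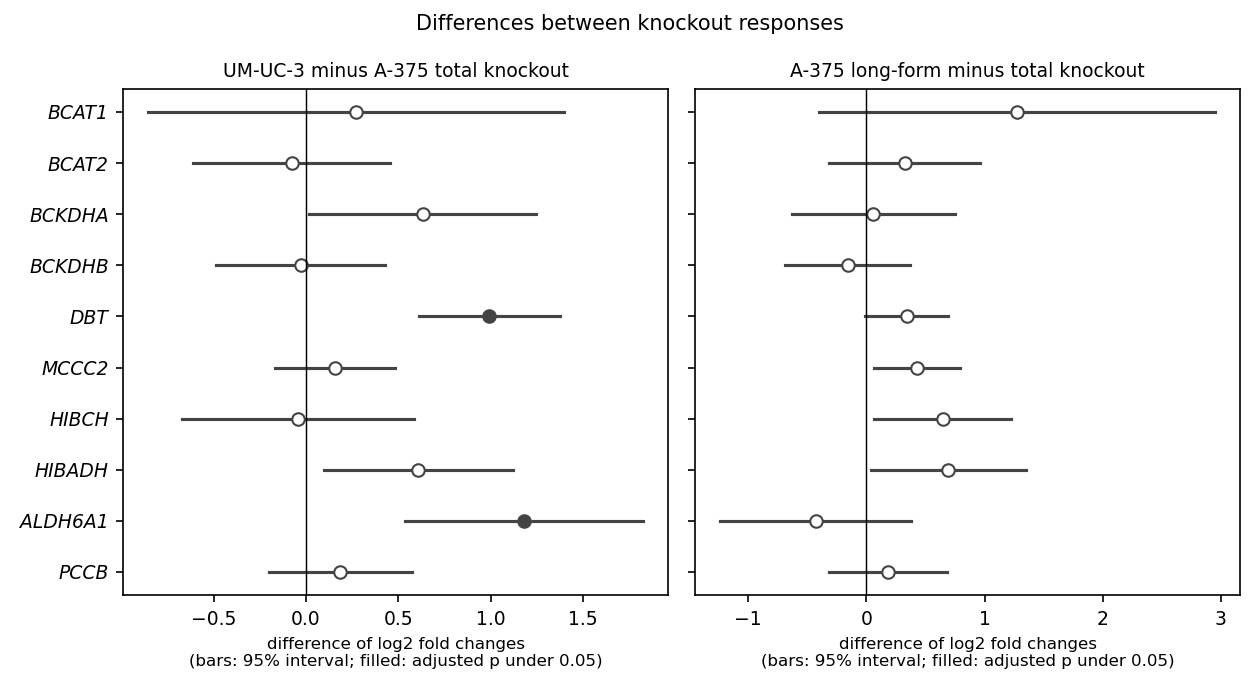
Difference of log2 fold changes between deposited tables for each of the 10 genes: UM-UC-3 minus A-375 total knockout (left) and A-375 long-form minus total knockout (right). Bars are 95% intervals and filled points passed an adjusted p of 0.05. DBT (0.99) and ALDH6A1 (1.18) are filled on the left, and no gene is filled on the right.

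In the A-375 table labelled as the long-form knockout 0 of the 10 genes passed by the authors' DESeq2 adjusted p or by their q-value, and 0 had an unadjusted p under 0.05. Of all 14156 entries with an adjusted p 0.904% passed. The log2 changes ran from -0.26 for ALDH6A1 to 0.42 for BCAT1, with a median of 0.10 beside 0.02 over all entries. The nearest to a change relative to its error was MCCC2 (0.28 ± 0.15 from the authors' deposited table, where its adjusted p was 0.475). The long-form and total-knockout tables of A-375 may share control libraries. Their difference, long-form minus total, passed for 0 of the 10 genes and for 4.45% of all 13946 entries when errors were taken as independent. With a correlation of 0.5 between the errors, as shared controls could give, 4 of the 10 passed (DBT, MCCC2, HIBCH and HIBADH), each higher in the long-form knockout. So did 2967 of all entries, or 21.3%, with 12.7% above 0.

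Relative levels of the 10 genes were compared per kilobase of the longest coding transcript in GENCODE 29, on the mean over knockout and control libraries, given per 1000000 of the summed means of each table. The tables were normalized separately. Which transcript of each gene was expressed is not known, so the order depends on the length used. In UM-UC-3, PCCB (6.09 kb) stood at 133 per 1000000 before division by length, and BCAT2 (2.04 kb) at 71.3. In UM-UC-3 the order ran from BCAT2 (34.9 per 1000000 per kb), BCKDHA (28.7) and BCAT1 (25.1) down to HIBCH (7.11) and DBT (4.84). In the A-375 total-knockout table it ran from MCCC2 (38.1), BCKDHA (28.9) and HIBADH (28.6) down to DBT (5.06) and BCKDHB (3.79). ALDH6A1 was at 10.1 in UM-UC-3, rank 7 of 10, and at 5.27 in the A-375 total-knockout table, rank 8. These means rest mostly on knockout libraries. By the implied levels with parental controls, ALDH6A1 was at 10.7 in UM-UC-3 knockouts (rank 7) and 4.19 in UM-UC-3 controls (rank 9), and at 5.36 in A-375 total knockouts (rank 8) and 4.75 in A-375 controls (rank 9). These means carry no error between libraries, so neighbours in the order cannot be separated.

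Other genes of the pathway also lay on both sides of 0 in UM-UC-3. Of 25 further genes of transport, breakdown and cofactor loading, 24 were measured there, 3 were higher and 4 lower, and 17 did not pass. The share called, 29.2%, was close to the 31.1% over all entries of that table. Their median log2 change was 0.01. On the leucine route the hydratase AUH was higher (0.53 ± 0.14 by the authors' deposited table, with an adjusted p of 0.00167). SLC43A1, a plasma-membrane carrier of large neutral amino acids, rose by 1.25 ± 0.23 in log2 (in the authors' deposited table, at an adjusted p of 1.64e-06). The biotin-recycling enzyme BTD fell by 1.04 ± 0.24 on the log2 scale (in the authors' deposited table, at an adjusted p of 0.000238). HSD17B10 (-0.42 ± 0.17, adjusted p 0.046) and the thiolase ACAT1 (-0.38 ± 0.14, adjusted p 0.0217), which act on the isoleucine route, were lower, as was the epimerase MCEE (-0.49 ± 0.20, adjusted p 0.0474), all in the authors' deposited table. ACAT1, HSD17B10, DLD and ECHS1 (-0.37 ± 0.17 from the authors' deposited table, where its adjusted p was 0.0815) also serve fatty acid oxidation or the citric acid cycle.

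**Figure D4:**
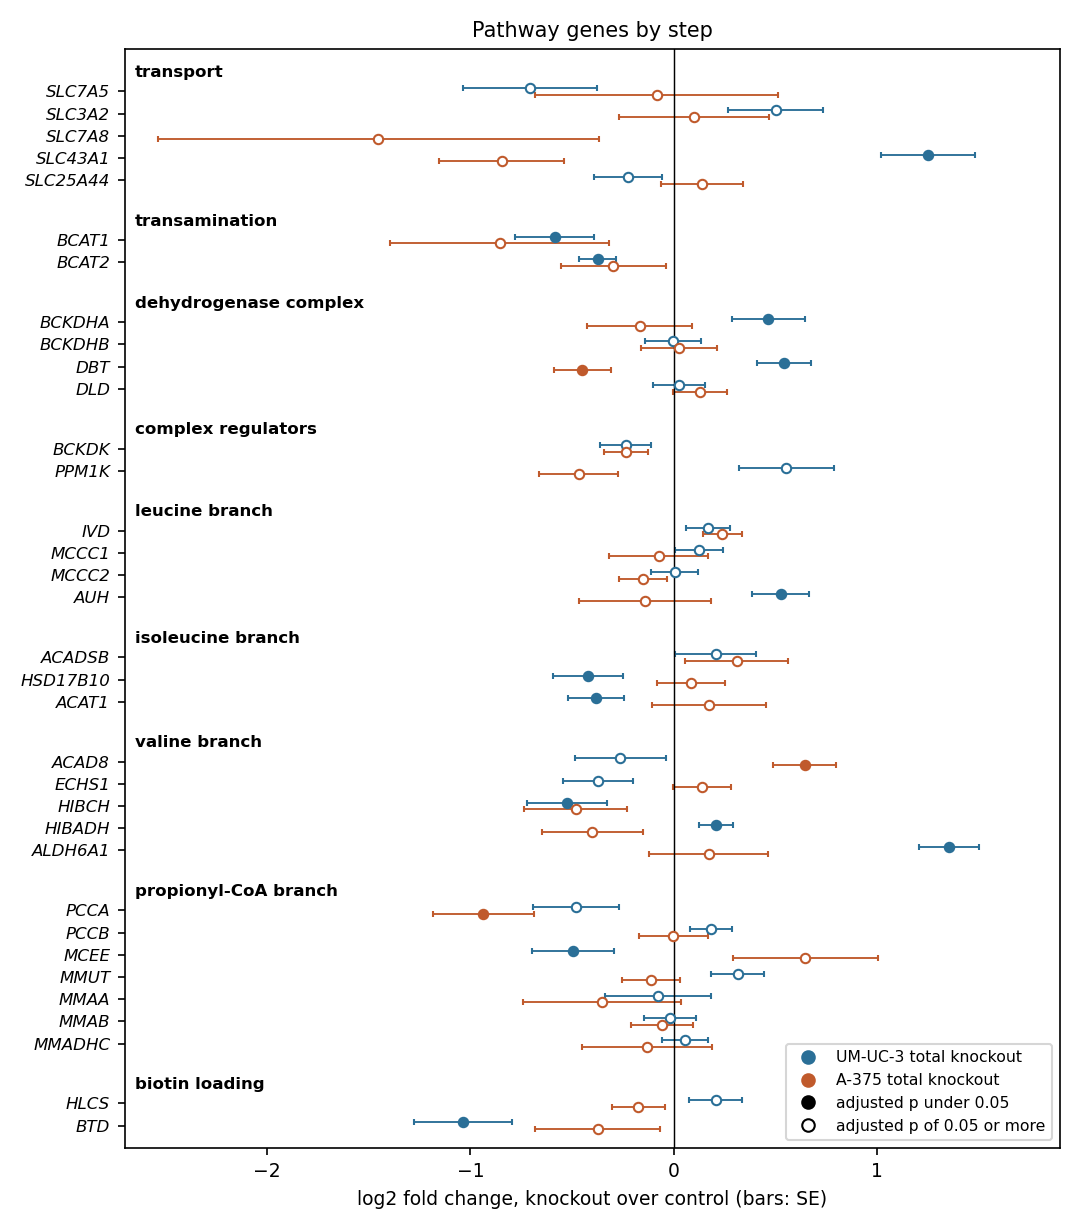
Log2 fold change of knockout over control for 34 of the 35 pathway genes, grouped by step, in UM-UC-3 and A-375 total knockouts. Bars are SE and filled points passed an adjusted p of 0.05. UM-UC-3 has filled points on both sides of 0, and A-375 has 3, DBT (-0.45), ACAD8 (0.65) and PCCA (-0.94).

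Of the same 25 genes in A-375 total knockouts, 1 was higher and 1 lower, or 8% beside 10.8% over all entries. ACAD8, isobutyryl-CoA dehydrogenase of the valine route, rose by 0.65 ± 0.16 in log2 (adjusted p 0.00138), and PCCA, the partner subunit of PCCB, was lower (-0.94 ± 0.25, adjusted p 0.0042), according to the authors' deposited table. PCCA was also below 0 in UM-UC-3 (-0.48 ± 0.21 from the authors' deposited table, where its adjusted p was 0.0656), and passed there by q-value or after centring. ACAD8 differed between the lines (UM-UC-3 -0.26, A-375 0.65; difference -0.91 ± 0.27, adjusted p 0.0155), as did SLC43A1 (UM-UC-3 1.25, A-375 -0.85; difference 2.10 ± 0.38, adjusted p 2.04e-05), by the normal test of the difference. PPM1K, the phosphatase that activates the dehydrogenase complex, passed in neither total-knockout table but differed between them (UM-UC-3 0.56, A-375 -0.47; difference 1.02 ± 0.30, adjusted p 0.0144, normal test of the difference). PPM1K was singled out after its values were seen. BCKDK, the kinase that inhibits the complex, was the 1 pathway gene called in the table labelled as the long-form knockout (0.38 ± 0.09 from the authors' deposited table, where its adjusted p was 0.00912).

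Among relatives of ALDH6A1, 13 of 18 listed aldehyde dehydrogenases were measured in UM-UC-3, and 2 were higher and 3 lower. That is 38.5%, beside 31.1% over all entries. ALDH1L2, a mitochondrial folate enzyme (1.27 ± 0.42, adjusted p 0.0108), and ALDH2, the mitochondrial acetaldehyde enzyme (1.03 ± 0.39, adjusted p 0.0286), were higher by the authors' deposited table, at mean normalized counts of 73.5 and 87.3. ALDH7A1 of lysine breakdown (-0.66 ± 0.14, adjusted p 3.97e-05), ALDH16A1 (-0.40 ± 0.12, adjusted p 0.00614) and ALDH5A1 of GABA breakdown (-0.25 ± 0.09, adjusted p 0.0207) were the lower ones by the authors' deposited table. ALDH7A1 was lower in A-375 total knockouts too (-0.60 ± 0.16, adjusted p 0.00592), with ALDH1A3 (-0.81 ± 0.26, adjusted p 0.0208), in the authors' deposited table.

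ALDH6A1 lies on chromosome 14 (74056850 to 74084493, hg38, minus strand; GENCODE 29). LIN52, a subunit of the DREAM cell-cycle complex, starts 303 bases away on the opposite strand and reads outward. LIN52 had a log2 change of 0.13 ± 0.15 in UM-UC-3 (adjusted p 0.551) and -0.23 ± 0.28 in A-375 total knockouts (adjusted p 0.644) in the authors' deposited tables. Its UM-UC-3 interval of -0.17 to 0.42 lay below that of ALDH6A1, 1.06 to 1.65, and the difference between these genes was not tested. The next gene on the other side, ENTPD5, had 0.33 ± 0.16 in UM-UC-3 (in the authors' deposited table, at an adjusted p of 0.107).

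BBOF1, a ciliary basal body gene listed under its older symbol CCDC176, overlaps ALDH6A1 on the opposite strand. The annotated exons of the pair share 670 bases, 10.0% of the exon bases of ALDH6A1. BBOF1 rose in UM-UC-3 (0.72 ± 0.23, adjusted p 0.0102) and in A-375 total knockouts (1.38 ± 0.38, adjusted p 0.00749) in the authors' deposited tables. Its mean normalized count was 283 in UM-UC-3, beside 2347 for ALDH6A1. The kit was stranded, but no source used here says whether strand entered the counting, so reads of ALDH6A1 and BBOF1 may be mixed, and the part of this in the rise of ALDH6A1 was not tested.

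**Figure D5:**
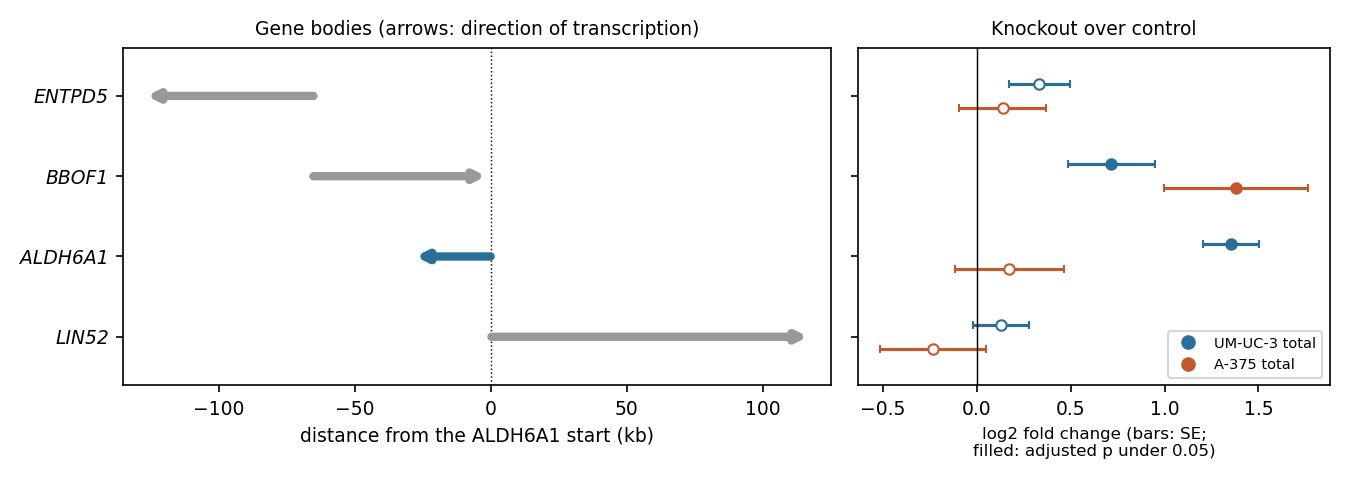
Left, gene bodies around ALDH6A1, as distance from its start in kb, with arrows in the direction of transcription. Right, log2 fold change of knockout over control in UM-UC-3 and A-375 total knockouts (bars: SE; filled: adjusted p under 0.05). ALDH6A1 is filled in UM-UC-3 (1.36) while LIN52, which starts 303 bases away, is open in both lines (0.13 in UM-UC-3, -0.23 in A-375).

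By GENCODE gene records, head-to-head neighbours were also found for BCKDHA and HIBCH. EXOSC5, an exosome subunit, overlaps the GENCODE record of BCKDHA by 19 bases at its start. EXOSC5 starts at 41397479, whereas the stretch before the RefSeq start of BCKDHA is chr19:41397568-41397817. By that RefSeq start the pair does not overlap. EXOSC5 had 0.41 ± 0.17 in UM-UC-3 (adjusted p 0.0542) and -0.52 ± 0.28 in A-375 total knockouts in the authors' deposited tables. Its difference between the lines, 0.94 ± 0.33, passed (adjusted p 0.0438, normal test of the difference), and had the sign of that of BCKDHA (0.63). The call was lost after centring each table (0.85, adjusted p 0.0692). INPP1, an inositol phosphatase whose start overlaps the GENCODE record of HIBCH by 723 bases, had -0.06 ± 0.24 in UM-UC-3 (in the authors' deposited table, at an adjusted p of 0.873). INPP1 starts at 190343470, whereas the stretch before the RefSeq start of HIBCH is chr2:190319827-190320076. By that RefSeq start the pair does not lie within 1000 bases. BCAT1 faces a non-coding RNA that was not matched in the tables.

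Over the 3 log2 changes, the entries nearest to ALDH6A1 among 10502 whose mean reached 100 normalized counts in every table were SKIL, a SMAD corepressor, RTN4RL2, a Nogo receptor relative, the protease inhibitor SERPINE2, the endoplasmic reticulum chaperone HSPA5, and the zinc finger gene ZNF25, at Euclidean distances of 0.12 to 0.19. In UM-UC-3 their log2 changes ran from 1.22 for RTN4RL2 to 1.42 for ZNF25 in the authors' deposited table. Their A-375 values ran from 0.06 to 0.35 in total knockouts and from -0.28 to -0.12 in the long-form knockout. SERPINE2 did not pass in UM-UC-3 (1.27 ± 0.64 from the authors' deposited table, where its adjusted p was 0.116). With 3 values, of which a pair may share controls, such likeness is a description of these tables.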

How the data were processed

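RNA-seq libraries were grouped by cell line and edited locus from their labels. Per the submitters' processing notes, HISAT2, SAMtools, StringTie, DESeq2 and build hg38 were used; no source used here states their order or versions, the annotation, the design formula or which controls were fitted. What the authors deposited is DESeq2 output in 3 tables. Per the file headers, the signal column is the mean of size-factor-scaled counts over libraries. The log2 columns are each gene's fitted fold change, knockout over control, with a standard error, per the file headers. The score column is a Wald statistic, and the p-value columns are raw, adjusted and q-values, per the file headers. Recomputed Wald statistics and adjusted p-values differed from the deposited ones by at most 6.98e-05. No per-library count was used, so no model was refitted and no library was left out.

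A gene was called at the authors' adjusted p under 0.05. Members and gene lists were chosen with earlier results of these data known. Differences between tables were tested as the difference of log2 fold changes over the root of the summed squared errors. A 2-sided normal p was Benjamini-Hochberg adjusted over entries whose mean reached 10 normalized counts in both tables. The test was run on simulated data with independent normal errors of the deposited size. The planted differences had 1 size, larger than that of any of the 10 genes. Shared controls and repeated clones were not simulated, so that run does not cover them. Levels per group were worked out from the mean, fold change and library numbers. Older symbols were matched through RefSeq. Places of genes come from GENCODE release 29 (hg38), and promoters from RefSeq (GRCh38.p14). Named genes were the 10 members, other pathway genes called in any table, aldehyde dehydrogenases called in UM-UC-3, head-to-head neighbours within 1000 bases, the genes beside ALDH6A1, GABPB1 forms, GABPA and GABPB2, and the 5 entries nearest to ALDH6A1 in fold change. PPM1K, ALDH1A3, BBOF1, DLD, ECHS1 and the named marker genes fall outside this rule and were chosen after their values were seen. 1 gene of the pathway list is counted but not reported here by name. Python 3.11.15, pandas 2.3.3 and scipy 1.17.1 were used.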

Additional observations from a re-analysis of the deposited data

Results flagged for a closer look

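Several responses to total GABPB1 knockout differed between UM-UC-3 and A-375 by the normal test of the difference over 12639 entries (difference of log2 fold changes, UM-UC-3 minus A-375). Of 34 pathway genes tested, 4 passed above 0 and 1 below, beside 10.4% of all entries in either direction. The list was chosen with earlier results known, so nothing is read from that count. ALDH6A1 differed by 1.18 (log2 change 1.36 in UM-UC-3, 0.17 in A-375). DBT differed by 0.992 and had opposite signs in the lines (0.54 in UM-UC-3, -0.45 in A-375). The phosphatase PPM1K (1.02) and the carrier SLC43A1 (2.1) differed in the same direction. ACAD8 differed the other way (-0.908). EXOSC5, beside BCKDHA, differed by 0.937, a call also lost on centring (0.85, adjusted p 0.0692). In A-375, the long-form and total knockouts differed for the kinase BCKDK (0.613, long-form minus total). BCKDK was the 1 gene that passed of 35 pathway genes tested, beside 4.45% of all entries. ALDH7A1 differed by a narrow margin (0.607, adjusted p 0.0427 by the normal test of the difference). Its call was lost after centring each table (0.54, adjusted p 0.0905). Cell line, tissue of origin, the set of clones and the control libraries change together between the UM-UC-3 and A-375 tables and cannot be told apart.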

How the results depend on the processing

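At a threshold of 0.01 the calls fell to 705 in A-375 total knockouts, 62 in the long-form table and 2710 in UM-UC-3, the 10 genes' calls to 0 in A-375 total knockouts and 3 in UM-UC-3 (ALDH6A1, DBT and BCAT2), and those of the 35-gene pathway list to 7 in UM-UC-3. Requiring a log2 change of at least 0.5 left 0 of the 10 in A-375 total knockouts and 4 in UM-UC-3. It left 0 and 8 of the pathway list in the long-form and UM-UC-3 tables. In A-375 total knockouts 1364 of all 14330 entries with an adjusted p met that rule. For the other tables the number over all entries is not given here, so nothing is read from their counts under it. By the authors' q-value the A-375 total-knockout pathway list had 5 calls, beside 2175 over all entries. These counts follow from the construction of each rule. Centring each table on its median turned 10 values near 0 among the 34 genes recomputed one by one, none of them a call: PCCB in A-375 total knockouts (0.0508), BTD (-0.00076) and ALDH7A1 (-0.0131) in the long-form table, MCCC2 (-0.0256) and DLD (-0.0029) in UM-UC-3, the UM-UC-3 minus A-375 difference of BCKDK (-0.0830), and the long-form minus total differences of BCKDHA (-0.0083), ALDH5A1 (-0.0442), DLD (-0.0218) and ENTPD5 (-0.0345). Marker genes, GABP entries and the entries nearest to ALDH6A1 were not recomputed. The calls of the ALDH7A1 (0.54, adjusted p 0.0905) and EXOSC5 (0.85, adjusted p 0.0692) differences were lost on centring. An error correlation of 0.5 between the A-375 tables gave 2967 differences, 4 of them among the 10 genes. With ROSA26 controls included, the implied ALDH6A1 level was 2889 in UM-UC-3 knockouts and 1129 in controls. The calls of ALDH6A1 in UM-UC-3, and of the ALDH6A1 and DBT differences between the lines, held under every setting applied to them. Each setting reused the same fitted values and errors, and none varied the clones or the fitted controls. These settings therefore do not show whether the calls depend on clones or controls. No paired analysis was possible because the deposited tables hold fitted values and no value per library, and for the same reason no library could be left out.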
